A study of Mus musculus with 24 samples.

Results

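The genes of oxidative phosphorylation were followed through a CRISPR knockout series in mouse leukaemia cells. The set was chosen by name: protein-coding genes of GENCODE M21 whose symbols follow the naming of subunits of complex I (Nduf), complex II (Sdh), complex III (Uqcr, Cyc1 and mt-Cytb), complex IV (Cox4 to Cox8 and mt-Co) or ATP synthase, complex V (Atp5 and mt-Atp). Genes were sorted into complexes by these names, so not every member need be a structural subunit. Cox7a2l and Atp5s are counted with complexes IV and V on that basis. That rule named 99 genes, and 98 of them were among the 43629 genes of the count table, 85 encoded in the nucleus and 13 on the mitochondrial genome. The nuclear genes comprised 35 of complex I, 4 of complex II, 9 of complex III, 20 of complex IV (with Ndufa4 and Ndufa4l2 counted there) and 17 of complex V. A second Atp5o identifier was not analysed here. Expression values of 90 of the 98 genes, 79 nuclear and 11 mitochondrial, were high enough for testing.

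Oxidative phosphorylation passes electrons from NADH and succinate through complexes I to IV to oxygen, pumps protons across the inner mitochondrial membrane, and uses their return through complex V to make ATP. Most subunits are encoded in the nucleus and imported, whereas a small core of complexes I, III, IV and V is encoded on mitochondrial DNA, which is transcribed by its own polymerase as long precursors that are then cut into single transcripts. Several complex IV subunits exist as alternative isoforms, of which Cox7a1 and Cox6a2 are best known from heart and skeletal muscle, and Cox7a2 and Cox6a1 are their broadly expressed partners. Myeloid leukaemia cells are known to draw on oxidative phosphorylation.

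The cells were a Cas9-expressing mouse leukaemia line driven by the MLL-AF9 fusion, which all groups carried. Guide RNAs were delivered by lentivirus with a low virus-to-cell ratio (0.3), puromycin at 2 ug/ml was applied for 72 h from 48 h after infection, and total RNA was taken on day 9. The targets were DOT1L, the histone H3 lysine 79 methyltransferase, and 3 genes of its complex, MLLT10, MLLT1 and MLLT6. Each of the 8 groups had 3 samples: a non-targeting guide (mNTG2) as the control, 1 DOT1L guide (5-1), and guides 1 and 2 for each of MLLT10, MLLT1 and MLLT6. The DOT1L and control groups thus each rest on a single guide in a single line. Whether the 3 samples of a group were independent cultures is not stated in the labels; p-values given here rest on sample-to-sample spread alone, and some of that spread may be technical.

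Libraries held 2403044 to 7415397 counts. Dot1l mRNA stood at 69.7, 75.1 and 73.9 normalised CPM (counts scaled to a common library size of 1000000) in the control and at 49, 41.6 and 43.3 in the DOT1L knockout (log2 change -0.71, adjusted p = 0.000189, edgeR). Mllt10 was -0.76 in the MLLT10 knockout (adjusted p = 0.139) and Mllt6 -0.90 in the MLLT6 knockout (adjusted p = 0.496), neither past the threshold, while Mllt6 fell in the DOT1L knockout (-1.0, adjusted p = 0.00214). Mllt1 did not go down with its own guides (log2 change 0.62, adjusted p = 0.148, edgeR), so those samples are called the libraries labelled MLLT1 knockout. For any of the targets, mRNA counts alone do not show whether a guide disrupted its gene. The leukaemia markers Ptprc, Kit, Hoxa9, Meis1, Flt3 and Cd34 were all present in the control. In the DOT1L knockout 8 of 8 neutrophil markers rose, with a summed level of 94300 to 107000 CPM against 1360 to 1810 CPM in the control, and of 4 monocyte and macrophage markers 3 rose (Csf1r, Cd14 and Lyz2) and Adgre1 fell. The summed erythroid markers were at 1.86 to 3.92 CPM against 67.2 to 96.3 CPM in the control (Hbb-bt, the 1 of 4 tested, fell), and those of fibroblast and epithelium at 14.6 to 20 CPM against 0 to 1.25 CPM (Col1a1, the 1 of 4 tested, rose). The summed level of 6 leukaemia and blood markers was 262 to 322 CPM there against 808 to 941 CPM, and the T cell and B cell markers were at 0 in both groups. S100a8 and S100a9 alone took 6.07% to 6.63% of all counts in the DOT1L knockout and 0.011% to 0.0187% in the control. These markers changed with every DOT1L result given here, and their part in those results was not tested; in bulk RNA, fewer cells of a type and less RNA per cell cannot be told apart.

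In the control, levels were compared between genes as TPM, in which counts are divided by exon length and scaled to a common total; the library kit is not given in the labels, so even coverage of transcripts is assumed. Within each complex, nuclear subunits that assemble together differed widely in level. In complex I the highest was Ndufa2 at 2030 TPM and the lowest Ndufb7 at 26.4 TPM, both accessory subunits. In complex II, the iron-sulfur subunit Sdhb stood at 254 TPM and the membrane anchor Sdhc at 106 TPM, the narrowest of the 5 spans. Complex III ran from 2160 TPM for Uqcr10, a small accessory subunit, to 114 TPM for Cyc1, the cytochrome c1 subunit. Complex IV ran from 5160 TPM for Cox6a1 to 19.3 TPM for Cox5a, and complex V from 4730 TPM for Atp5k to 13.1 TPM for Atp5l, both subunits of its membrane part. The length used joins all annotated exons of a gene, 4522 bases for Ndufb7 and 6443 for Atp5l against 572 for Ndufa2 and 616 for Atp5k, so a gene with a long minor isoform reads low on this scale. Subunits that carry the chemistry of each complex were also read on this scale: the complex V catalytic head subunits Atp5a1 and Atp5b at 811 ± 22.5 and 810 ± 47.4 TPM, the flavoprotein Sdha at 215 ± 18 TPM, the Rieske protein Uqcrfs1 at 296 ± 57.1 TPM, and the complex I core subunits Ndufs3 and Ndufs7 at 27.9 ± 2.9 and 320 ± 52.3 TPM (SD, n = 3).

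Among mitochondrial genes the highest was mt-Nd1, a membrane subunit of complex I, at 8060 ± 3530 TPM (SD, n = 3). It was followed by mt-Cytb, the cytochrome b of complex III, at 6350 ± 3490 TPM and mt-Nd4 at 5990 ± 3050 TPM, which do not differ beyond their spread. The complex IV core subunits mt-Co1, mt-Co2 and mt-Co3 stood at 1440 ± 386, 89.7 ± 25 and 19.4 ± 8.34 TPM. The muscle isoform Cox7a1 reached 229 ± 38.6 TPM beside 3260 ± 135 TPM for Cox7a2, and Cox6a2 reached 43.3 ± 18.4 TPM beside 5160 ± 38.8 TPM for Cox6a1. The other tissue-restricted isoforms held next to nothing: over all 24 libraries Cox4i2 had 11 counts, Cox6b2 had 32, Cox8b had 16, and Cox7b2, Cox8c and Ndufa4l2 had 0. The short mitochondrial genes mt-Atp8 and mt-Nd4l had 10 and 14 counts and were likewise not tested.

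**Figure D1:**
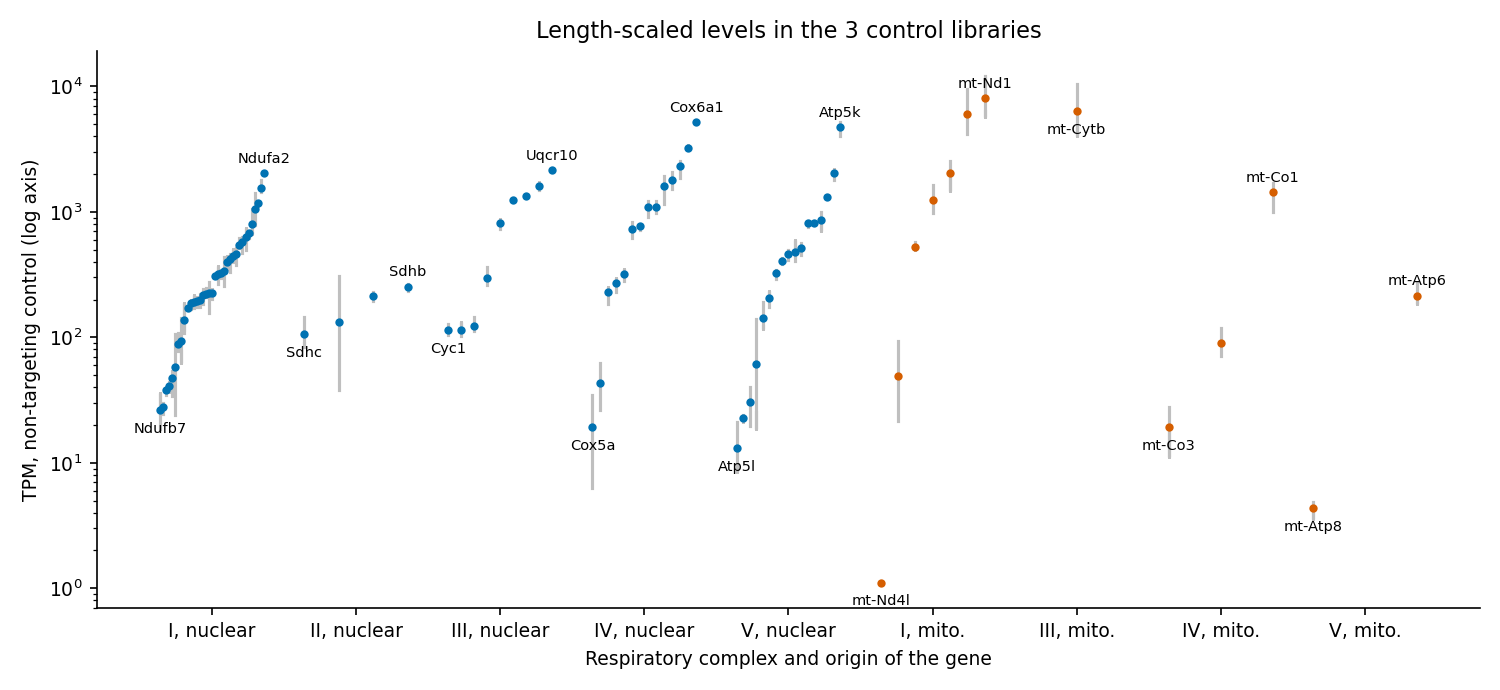
Level of each oxidative phosphorylation gene in the control, in TPM on a log axis, by complex and genome of origin; points are means of 3 libraries, grey bars the range of those libraries, and genes at 0 are left out. Within complex IV the levels run from 5160 for Cox6a1 to 19.3 for Cox5a, and mitochondrial levels from 8060 for mt-Nd1 down to single digits.

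The low values of some mitochondrial genes need a limit. Nuclear copies of mitochondrial DNA on chromosome 1 are annotated as unprocessed pseudogenes, and a read that fits both places equally well may be dropped or shared, depending on counting settings, which the sources used here do not give. Of the 50-base stretches of mt-Co2, mt-Co3 and mt-Atp6, 100%, 99.9% and 99.5% also occur in another GENCODE M21 transcript, against 62.2% for mt-Nd4, 51.1% for mt-Co1 and 0% for mt-Nd1, mt-Nd6 and mt-Cytb. The copies hold counts of their own, 9079 for Gm10925 and 2948 for Gm29216 over all libraries. Levels of mt-Co2, mt-Co3, mt-Atp6, mt-Nd3 and mt-Nd4l are therefore uncertain. Those of mt-Nd4 and mt-Co1 are uncertain in part. Of the 1378 bases of mt-Nd4, 876 aligned to the copy Gm28439 with 0 differences. The same limit applies to the changes of these genes described further on. For mt-Co1, whose change in the DOT1L knockout is described further on, the 492 aligned bases of Gm29216 differ from it at 6 positions. All other aligned bases are identical, so reads from most of that stretch fit both places. The 6 all lie near the start of the 60 bases printed here from the GENCODE M21 transcripts (mt-Co1 at chrM:6381-6440, plus strand; Gm29216 at chr1:24616138-24616197, minus strand; mm10), with the differing bases in capitals.
mt-Co1: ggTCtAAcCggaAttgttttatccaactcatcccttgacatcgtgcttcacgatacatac
Gm29216: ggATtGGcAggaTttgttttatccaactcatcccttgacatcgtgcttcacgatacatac

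Summed over all nuclear members, the libraries of every knockout overlapped those of the control. The nuclear sum was 30810, 31700 and 28440 CPM in the 3 control libraries and 30290, 29740 and 28270 CPM in the DOT1L knockout, with overlapping ranges. Its mean was 31580 ± 1320 CPM (SD, n = 6) with MLLT10 guides, 30320 ± 1850 CPM (n = 6) in the libraries labelled MLLT1 knockout and 32730 ± 2830 CPM (n = 6) with MLLT6 guides, where 1 library, guide 1 replicate 3, reached 37930 CPM. As a share of all counts the DOT1L sum was lower, at 2.46% to 2.66% against 3.04% to 3.24% in the control (log2 ratio -0.28 against -0.04 with TMM scaling); the S100a8 and S100a9 share given above is in that denominator. The mitochondrial sum was 18640, 9242 and 9019 CPM in the control and 18340, 14770 and 15200 CPM in the DOT1L knockout. Control replicate 1 held about as much mitochondrial mRNA as DOT1L replicate 1, and the other two control libraries lay below every DOT1L library. The sum was 13210 ± 2800 CPM (n = 6) with MLLT10 guides, 12880 ± 2040 CPM (n = 6) in the libraries labelled MLLT1 knockout and 12110 ± 1980 CPM (n = 6) with MLLT6 guides.

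**Figure D2:**
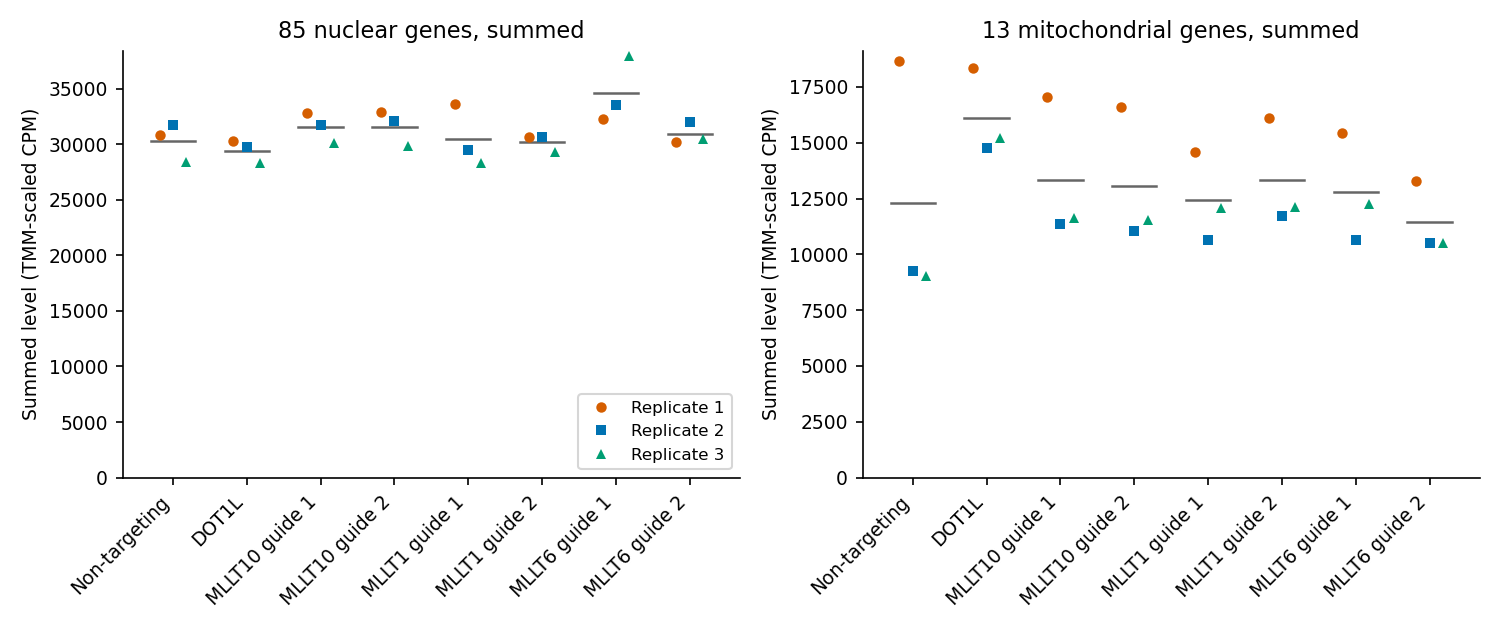
Summed expression of nuclear and of mitochondrial oxidative phosphorylation genes in each of the 24 libraries, in TMM-normalised CPM, by group; marker shapes give the replicate number and the grey line the group mean. Nuclear sums lie in a narrow band except 37930 in MLLT6 guide 1 replicate 3, and the mitochondrial sum is highest in replicate 1 of every group.

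With the DOT1L guide a few single members were lower, and none was called higher in the edgeR fit used throughout. Of the 90 members tested, 6 fell and 0 rose at an adjusted p under 0.05, which is 6.67%, where 21.8% of all 10578 genes tested were called (11.2% higher and 10.7% lower). The 6 were 3 complex IV genes of the nucleus (Cox7a1, Cox6a2 and Cox7a2l), Uqcrh of complex III, Atp5s, and the mitochondrial mt-Co1; 12 members had an unadjusted p under 0.05. DESeq2 called 7, these 6 and Atp5f1, a stator subunit of complex V, as higher. The median log2 change was -0.06 over the 79 nuclear members, of which 48 were negative and 31 positive, and 0.01 over all genes tested. None of the 35 complex I members was called by edgeR or by DESeq2 (1 had an unadjusted p under 0.05), and none of the 4 complex II members was called by either tool (0 with an unadjusted p under 0.05). The complex I member with the smallest p was Ndufa9, an accessory subunit (-0.40 ± 0.17 SE, adjusted p = 0.113, edgeR).

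Among nuclear subunits that carry electrons or catalyse each step, those given here did not pass the test in the DOT1L knockout. Of the core complex I subunits, Ndufs1, Ndufs3, Ndufs7, Ndufs8, Ndufv1 and Ndufv2 ran from -0.36 ± 0.23 for Ndufs3 to 0.12 ± 0.27 for Ndufs8 (log2 change ± SE). Sdha, which oxidises succinate, was at 352, 391 and 369 CPM in the control and at 320, 313 and 280 CPM in the knockout, lower in each library, yet did not pass the test (-0.29 ± 0.17, adjusted p = 0.242, edgeR). Its partner Sdhb, at 262, 253 and 204 CPM against 187, 212 and 179 CPM, gave a similar value (-0.32 ± 0.23, adjusted p = 0.38) with overlapping groups. In complex III the electron carriers Cyc1 and Uqcrfs1 were at 0.06 ± 0.24 and -0.22 ± 0.15, and in complex IV the regulatory subunit Cox4i1 was at -0.05 ± 0.39. In complex V, Atp5a1 stood at 1120, 1060 and 1020 CPM against 1040, 1000 and 956 CPM, and Atp5b at 1580, 1490 and 1260 CPM against 1480, 1290 and 1270 CPM. Both pairs of groups overlapped, with log2 changes of -0.09 ± 0.11 and -0.10 ± 0.13.

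**Figure D3:**
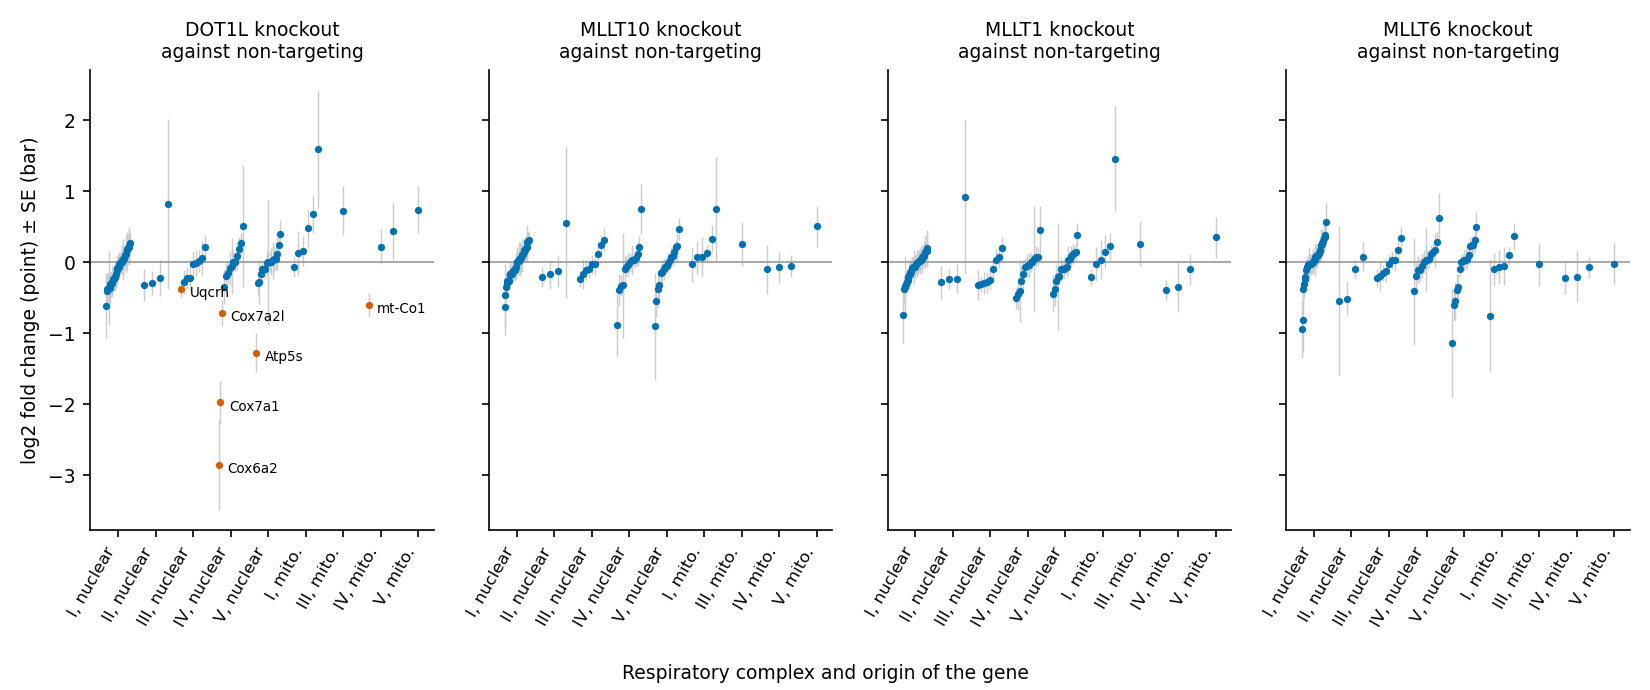
Log2 change against the non-targeting control with its standard error for every tested oxidative phosphorylation gene, by complex and origin, in a panel for each knockout (edgeR, 24 libraries); orange points passed an adjusted p of 0.05. The 6 orange points are all negative and all in the DOT1L panel, with Cox6a2 at -2.85 and Cox7a1 at -1.97 farthest from 0.

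The muscle-type isoforms of complex IV fell most. Cox7a1 (chr7:30184144-30186078, plus strand) stood at 43.3, 58.2 and 52.1 CPM in the control and at 10.4, 13.2 and 15.1 CPM in the DOT1L knockout. All 3 knockout libraries lay far below all 3 control libraries, a log2 change of -1.97 ± 0.30 (SE, adjusted p = 2.83e-05, edgeR). Its broadly expressed partner Cox7a2 stood at 1300, 1380 and 1200 CPM in the control and at 1590, 1650 and 1460 CPM in the knockout. Every knockout library lay above every control library, yet Cox7a2 did not pass the test (0.27 ± 0.15, adjusted p = 0.201, edgeR). Cox7a1 therefore made up 3.81% ± 0.51 (SD, n = 3) of the counts of the pair in the control and 0.824% ± 0.19 (SD, n = 3) in the knockout. For single libraries the exact Clopper-Pearson 95% interval, which covers counting error only, ran from 2.65% to 3.90% in control replicate 1 and from 0.433% to 0.939% in knockout replicate 1. The share was 2.96% ± 0.75 (n = 6) with MLLT10 guides, 2.76% ± 0.94 (n = 6) in the libraries labelled MLLT1 knockout and 4.30% ± 2.1 (n = 6) with MLLT6 guides.

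Cox6a2 (chr7:128205435-128206387, minus strand) stood at 7.83, 11.9 and 16.7 CPM in the control and at 1.49, 1.07 and 2.14 CPM in the DOT1L knockout. The groups did not overlap, but the counts behind them were few, 19, 38 and 43 in the control and 4, 3 and 12 in the knockout (log2 change -2.85 ± 0.63 SE, adjusted p = 0.00166, edgeR). The gene lies inside Itgad, an integrin gene on the opposite strand, which had at most 7 counts in any library. Its partner Cox6a1 was at 1600, 1560 and 1410 CPM in the control and 1560, 1520 and 1510 CPM in the knockout (0.01 ± 0.13, adjusted p = 0.979). Cox6a2 made up 0.807% ± 0.35 (SD, n = 3) of the pair's counts in the control and 0.102% ± 0.036 (SD, n = 3) in the DOT1L knockout. It made up 0.435% ± 0.15 to 0.726% ± 0.40 (n = 6 each) with the other targets. Single libraries of those targets came close to the highest DOT1L library, at 0.141%: MLLT1 guide 2 replicate 1 was at 0.169% and MLLT6 guide 2 replicate 1 at 0.222%.

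Cox7a2l (chr17:83501918-83517330, minus strand), a relative of the subunit 7A isoforms that helps to join complexes III and IV into supercomplexes, stood at 148, 188 and 164 CPM in the control and at 92.1, 112 and 102 CPM in the DOT1L knockout. The groups did not overlap, and the log2 change was -0.71 ± 0.18 (SE, adjusted p = 0.00553, edgeR). Of its 50-base stretches, 13.8% also occur in another transcript. The mitochondrially encoded mt-Co1 (chrM:5328-6872), the catalytic subunit of complex IV, was at 674, 1070 and 1030 CPM in the control and 502, 707 and 616 CPM in the knockout (-0.60 ± 0.17 SE, adjusted p = 0.0114). Here the groups overlapped, since knockout replicate 2 lay above control replicate 1, although the knockout was lower within each replicate number. The mt-Co1 call was lost without control replicate 2 (-0.50, adjusted p = 0.0702), control replicate 3 (-0.52, adjusted p = 0.0593) or knockout replicate 1 (-0.50, adjusted p = 0.0662). With each of the 6 libraries left out in turn, Cox7a1, Cox6a2, Cox7a2l and Atp5s were called every time.

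In complex III, Uqcrh (chr4:116066965-116075071, minus strand), the hinge protein beside cytochrome c1, was at 696, 666 and 581 CPM in the control and at 518, 526 and 455 CPM in the DOT1L knockout. The groups did not overlap, and the change was small, -0.37 ± 0.12 (SE, adjusted p = 0.0306, edgeR). Its call was lost without control replicate 1 (-0.34, adjusted p = 0.0847), control replicate 2 (-0.37, adjusted p = 0.0755) or knockout replicate 3 (-0.31, adjusted p = 0.15). In complex V, Atp5s (chr12:69724950-69744660, plus strand), which encodes coupling factor B, was at 17.7, 27.5 and 31.9 CPM in the control and at 11.1, 8.89 and 11.8 CPM in the knockout. Every knockout library was below every control library (-1.27 ± 0.28 SE, adjusted p = 0.00156). Of the remaining nuclear complex V members edgeR called 0 and DESeq2 called 1 (Atp5f1), with 2 at an unadjusted p under 0.05, and the highest log2 change was that of Atp5g1, a c-ring subunit (0.40 ± 0.19, adjusted p = 0.137).

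**Figure D4:**
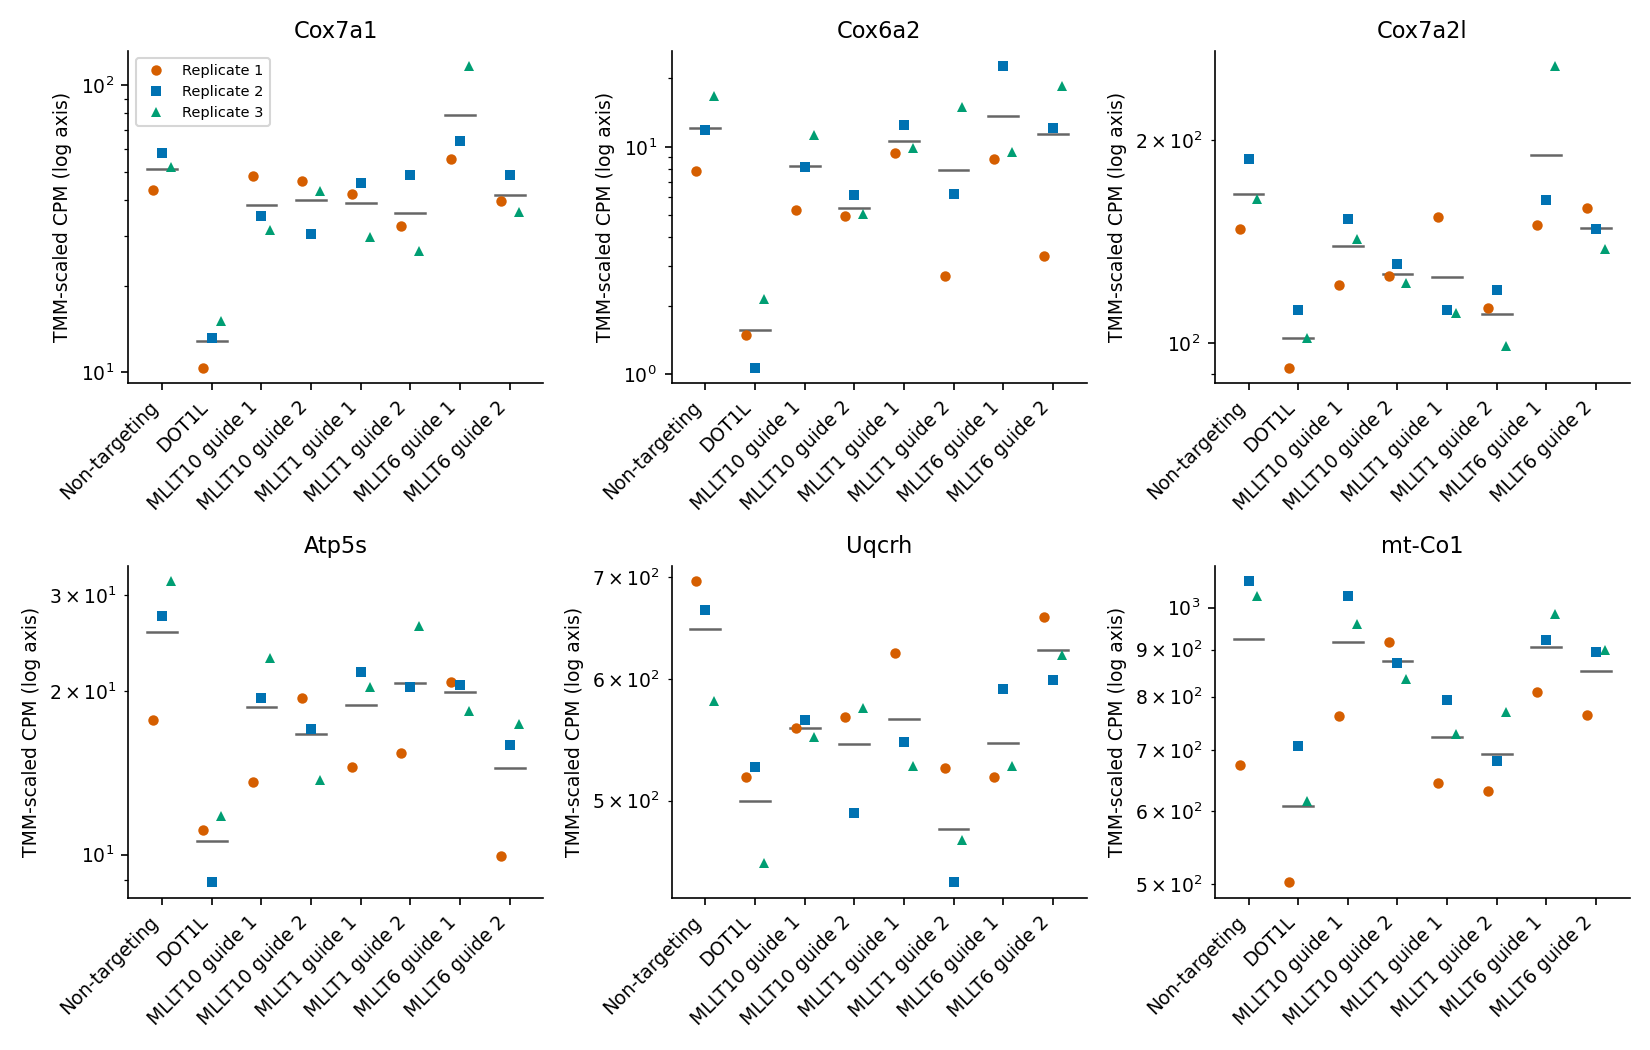
Level in each of the 24 libraries, in CPM on a log axis, of the 6 members that fell in the DOT1L knockout; lines are group means. Cox7a1 sits at 10.4 to 15.1 in the DOT1L knockout and at 26.5 or above in every other library, and mt-Co1 is the member whose DOT1L and control libraries overlap.

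The mitochondrial members did not move as one in the DOT1L knockout. Of 11 tested, 1 fell (mt-Co1) and 0 rose by edgeR and by DESeq2, 4 had an unadjusted p under 0.05, and the median log2 change was 0.44, with 9 positive. The values ran from -0.60 for mt-Co1 to 1.59 ± 0.82 (SE, adjusted p = 0.179, edgeR) for mt-Nd3, a low-count complex I subunit. The light-strand transcript mt-Nd6, the only subunit gene on that strand, was at 582, 325 and 439 CPM in the control and at 778, 656 and 717 CPM in the knockout. The groups did not overlap, yet the gene did not pass the test (0.68 ± 0.27, adjusted p = 0.0731). mt-Cytb was at 5200, 1990 and 2070 CPM in the control and at 6050, 4630 and 4720 CPM in the knockout (0.73 ± 0.35, adjusted p = 0.15). mt-Nd4, a proton-pumping subunit of complex I, was at 5750, 2540 and 2250 CPM against 5800, 4250 and 4660 CPM (0.48 ± 0.27, adjusted p = 0.235). For both genes the first control library lay among the knockout libraries and the other two control libraries lay below them.

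These calls depended on replicate 1 of the control and on the processing. Without that library, mt-Cytb was 1.32 higher on the log2 scale (adjusted p = 0.00878, edgeR), mt-Nd4 1.02 higher (adjusted p = 0.00386) and mt-Nd6 0.89 higher (adjusted p = 0.0326), all called. Other settings kept every control library. With no filter on low counts, mt-Cytb, mt-Nd6, mt-Atp6 and mt-Nd3 were called higher. Fitting only the compared groups called mt-Nd6, mt-Atp6 and mt-Nd3 higher, and a replicate block called mt-Nd4, mt-Cytb and mt-Atp6 higher. Leaving out MLLT6 guide 1 replicate 3 and MLLT1 guide 1 replicate 1 called mt-Nd6 higher. With the replicate 1 libraries of every group left out, a setting chosen after seeing the data, mt-Cytb (1.18), mt-Nd4 (0.87), mt-Nd6 (0.82), mt-Atp6 (0.91) and mt-Nd1 (0.46) were called higher and mt-Co1 (-0.69) lower. Within replicate numbers 1, 2 and 3, the summed mitochondrial log2 ratio of DOT1L knockout to control was -0.02, 0.68 and 0.75. The corresponding nuclear ratios were -0.02, -0.09 and -0.01. Single genes were higher within every number: mt-Cytb by 0.22, 1.22 and 1.19, mt-Atp6 by 0.44, 0.87 and 0.97 and mt-Nd6 by 0.42, 1.01 and 0.71 on the log2 scale. In the edgeR fit used throughout, the remaining mitochondrial members were not called: mt-Atp6 at 0.74 ± 0.33, mt-Co3 at 0.44 ± 0.40, mt-Co2 at 0.22 ± 0.25, mt-Nd2 at 0.16 ± 0.21, mt-Nd1 at 0.13 ± 0.31 and mt-Nd5 at -0.06 ± 0.14 (log2 change ± SE). Of the mitochondrial ribosomal RNAs, which are transcribed with these genes but are not members, mt-Rnr1 fell (-0.55, adjusted p = 0.0143) and mt-Rnr2 was at -0.28 (adjusted p = 0.461).

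A pattern tied to the replicate number ran through all groups. Replicate 1 had the highest level of its group in 8 of 8 groups for mt-Nd1, mt-Nd4, mt-Cytb and mt-Atp6, at 1.25 to 2.15, 1.03 to 2.40, 1.12 to 2.56 and 1.1 to 2.48 times the mean of replicates 2 and 3. mt-Co1 went the other way and was lowest in replicate 1 in 7 of 8 groups, as was the nuclear gene Cox6a2. The nuclear gene Sdhd, a membrane anchor of complex II, was lowest in replicate 1 in 8 of 8 groups and highest in replicate 3 in 7 of 8. Sdhd stood at 20.6, 27.2 and 149 CPM in control replicates 1, 2 and 3 and at 57.6, 81.4 and 203 CPM in the DOT1L knockout. What a replicate number shares is not stated in the labels, and its part in the results was not tested. Sdhd had the widest within-group spread of any member, an SD of 1.84 on the log2 scale, followed by Cox5a at 1.43, Atp5g2 at 1.3 and mt-Nd3 at 1.16. The tightest were Atp5a1 at 0.07, the alpha subunit of the complex V catalytic head, and Atp5f1 at 0.08. The median was 0.21 for nuclear members, 0.37 for mitochondrial members and 0.32 for all genes tested; over genes with at least 100 CPM it was 0.20 for 62 nuclear members and 0.22 for 2164 genes.

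**Figure D5:**
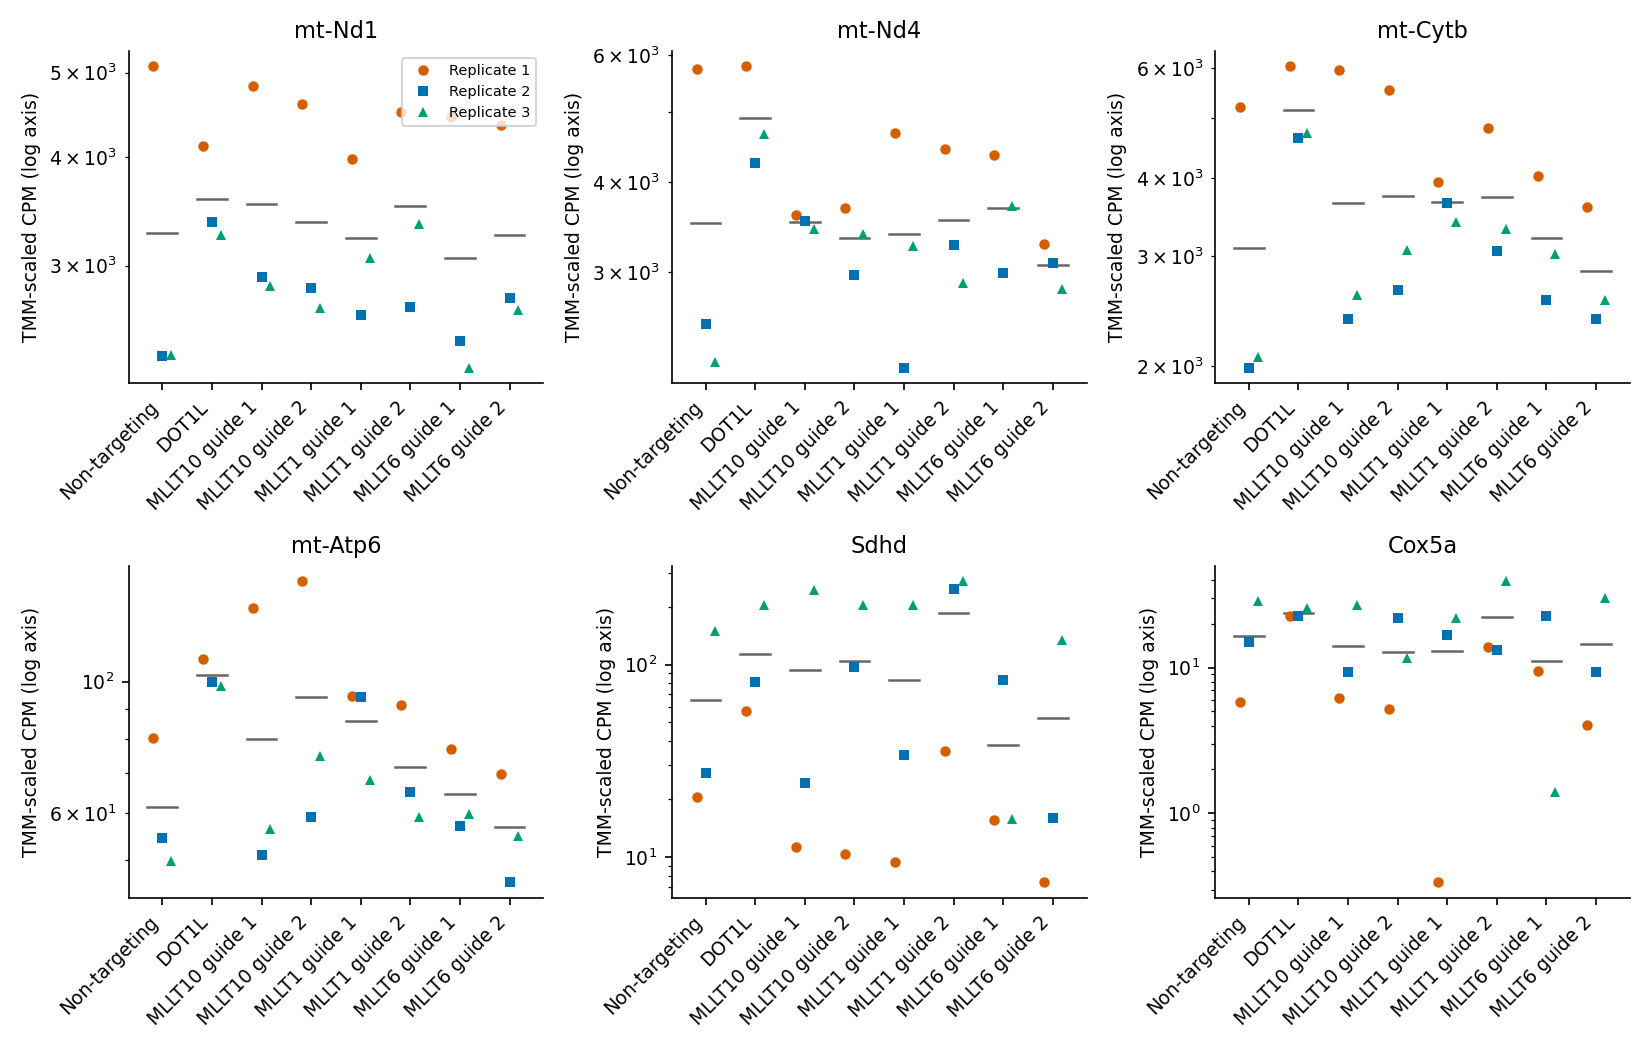
Level in each library, in CPM on a log axis, of mt-Nd1, mt-Nd4, mt-Cytb, mt-Atp6, Sdhd and Cox5a, with marker shapes for the replicate number. Replicate 1 is the highest of its group in 8 of 8 groups for the 4 mitochondrial genes and the lowest in 8 of 8 for Sdhd.

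In the edgeR fit no oxidative phosphorylation gene passed the threshold against the control with MLLT10, MLLT1 or MLLT6 guides; DESeq2 called 1, and without the count filter 2 were called for each target. With MLLT10 guides 0 of 90 members were called by edgeR and 0 by DESeq2, with 8 at an unadjusted p under 0.05, where 0.473% of all genes were called. The smallest p belonged to Atp5g1 (0.47 ± 0.16 SE, adjusted p = 0.284, edgeR), Atp5s (-0.54 ± 0.23, adjusted p = 0.407) and Ndufs7 (0.31 ± 0.13, adjusted p = 0.41), an iron-sulfur subunit of complex I. Atp5g1 ran from 44.9 through a median of 66.5 to 78.4 CPM with MLLT10 guides and stood at 51.9, 44.4 and 44.3 CPM in the control. With MLLT6 guides 0 of 90 were called by either tool, with 9 at an unadjusted p under 0.05, where 0% of all genes were called. The smallest p there belonged to Atp5s (-0.60 ± 0.23), Atp5d (0.50 ± 0.21), the delta subunit of complex V, and Ndufs5 (-0.94 ± 0.40), each at an adjusted p of 0.699. The nuclear and mitochondrial median log2 changes were -0.04 and 0.08 with MLLT10 guides, -0.06 and 0.04 in the libraries labelled MLLT1 knockout, and 0.03 and -0.06 with MLLT6 guides.

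In the libraries labelled MLLT1 knockout, 0 of 90 members were called by edgeR and 1 (Uqcrh, lower) by DESeq2, with 6 at an unadjusted p under 0.05, where 2.58% of all genes were called. The smallest p belonged to Cox7a2l, which ran from 99.1 through a median of 113 to 154 CPM beside 148, 188 and 164 CPM in the control. The highest of those 6 libraries, guide 1 replicate 1, overlapped the control and the other 5 lay below it (-0.50 ± 0.15 SE, adjusted p = 0.0875, edgeR). It was -0.41 with guide 1 and -0.59 with guide 2. Uqcrh (-0.31 ± 0.11, adjusted p = 0.13) and mt-Co1 (-0.39 ± 0.14, adjusted p = 0.176) followed, both members that fell in the DOT1L knockout; these comparisons share the 3 control libraries. Cox7a1 ran from 26.5 through 37.1 to 48.8 CPM there, from 30.3 through 39 to 48.3 CPM with MLLT10 guides, and from 36.3 through 52.2 to 117 CPM with MLLT6 guides. All 3 ranges overlapped the control and lay above the DOT1L knockout.

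Each guide taken alone against the control gave 0 called members with edgeR, with 2 and 6 at an unadjusted p under 0.05 for MLLT10 guides 1 and 2, 4 and 5 for MLLT1, and 19 and 2 for MLLT6. DESeq2 called 1 member for MLLT1 guide 2 (Uqcrh) and 0 for the other 5 guides. Of all genes, 0.17% and 0.303% were called for the MLLT10 guides, 1.25% and 1.22% for the MLLT1 guides and 0% for both MLLT6 guides. Guide 2 against guide 1 of a target also gave 0 called members with edgeR and with DESeq2, where 0% of all genes were called, with 3, 1 and 13 at an unadjusted p under 0.05 for MLLT10, MLLT1 and MLLT6.

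Against the DOT1L knockout, several genes that had fallen there were higher with the other targets; all 3 comparisons use the same 3 DOT1L libraries, so they are not independent of each other or of the calls against the control. With MLLT10 guides 9 of 90 members (10%, where 23.5% of all genes were called, 10.9% higher and 12.6% lower) differed from the DOT1L knockout, 7 higher and 2 lower. The libraries labelled MLLT1 knockout were higher in 3 (3.33%, where 8.49% of all genes were called higher and 11.1% lower, 19.6% in all), and MLLT6 guides gave 14 (15.6%, where 29.3% were called, 14% higher and 15.3% lower), 10 higher and 4 lower. Single libraries moved these counts. Without DOT1L replicate 1, 2 or 3 they were 4, 2 and 4 for MLLT10 and 7, 8 and 8 for MLLT6. They were 5 for MLLT10 without replicate 1 of either guide, 9 for MLLT6 without guide 2 replicate 2, and 5 for MLLT1 without guide 1 replicate 1 or 3. Cox7a1 was higher than in the DOT1L knockout by 1.58 ± 0.27 with MLLT10 guides (SE, adjusted p = 0.000101, edgeR), by 1.53 ± 0.27 in the libraries labelled MLLT1 knockout (adjusted p = 0.000164) and by 2.13 ± 0.27 with MLLT6 guides (adjusted p = 1.9e-06). It was called in all 3 whichever single library was left out. Cox6a2 was higher by 1.98 ± 0.58, 2.46 ± 0.58 and 2.89 ± 0.58 in the same order (adjusted p = 0.015, 0.00309 and 0.000464), a call lost in the first under 2 of 9 such omissions. Atp5s was higher by 0.72 ± 0.24, 0.89 ± 0.25 and 0.67 ± 0.25 (adjusted p = 0.0337, 0.011 and 0.0452), with the call lost under 7, 1 and 8 of 9 omissions.

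Cox7a2l was higher with MLLT6 guides than in the DOT1L knockout (0.72 ± 0.16 SE, adjusted p = 0.00133, edgeR), as was Ndufs3, a core subunit of the peripheral arm of complex I (0.75 ± 0.20, adjusted p = 0.00587). mt-Co1 was higher with MLLT10 guides (0.56 ± 0.15, adjusted p = 0.00789) and with MLLT6 guides (0.53 ± 0.15, adjusted p = 0.00899), and so was Uqcrq, a complex III subunit (0.54 ± 0.16 and 0.57 ± 0.16). The complex V catalytic subunit Atp5b was 0.31 and 0.33 higher and passed narrowly (adjusted p = 0.0442 and 0.0243). The remaining members higher than in the DOT1L knockout were Ndufa7 (0.55) with MLLT10 guides and Atp5j2 (0.40) and Ndufb2 (0.53) with MLLT6 guides. Lower than in the DOT1L knockout were Ndufs4 (-0.46) and Ndufa8 (-0.38) with MLLT10 guides, and mt-Nd3 (-2.35), mt-Nd6 (-0.77), mt-Atp6 (-0.76) and Ndufb3 (-0.50) with MLLT6 guides. MLLT6 guide 1 replicate 3 had the highest level of its 6 libraries for Cox7a2l, Ndufs3, Uqcrq, Atp5j2 and Ndufb2, well apart from the next. Without it Cox7a2l was 0.58 higher (adjusted p = 0.0024, edgeR), Ndufs3 0.56 (adjusted p = 0.0159) and Uqcrq 0.46 (adjusted p = 0.0209), while Atp5j2 (0.27, adjusted p = 0.113) and Ndufb2 (0.38, adjusted p = 0.123) were no longer called. With single libraries left out, Ndufs3, Cox7a2l and the MLLT6 value of Uqcrq were called every time. Each of the other values beside them lost its call under at least 1 omission, up to 8 of 9 for Ndufb3 (adjusted p = 0.0201 to 0.14).

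Between the other knockouts few members differed. Uqcrc1, a core subunit of complex III, was lower in the libraries labelled MLLT1 knockout than with MLLT10 guides (-0.53 ± 0.12 SE, adjusted p = 0.0186, edgeR), the 1 member called where 2.68% of all genes were (1.18% higher and 1.49% lower). It ran from 139 through a median of 166 to 182 CPM in the former and from 148 through 238 to 312 CPM in the latter, and stood at 187, 234 and 179 CPM in the control. MLLT6 guides differed from the libraries labelled MLLT1 knockout in 3 members (4.46% of all genes called, 2.68% higher and 1.78% lower): Cox7a2l (0.51 ± 0.13, adjusted p = 0.0205) and Uqcrc1 (0.47 ± 0.12, adjusted p = 0.0298) were higher and mt-Nd3 (-2.21 ± 0.60, adjusted p = 0.0358) lower. The mt-Nd3 call was lost under 7 of 12 single-library omissions, the Cox7a2l call under 4 (without MLLT6 guide 1 replicate 3 it was 0.37, adjusted p = 0.0696) and the Uqcrc1 call under 8, and Uqcrc1 lost its call against MLLT10 guides under 6 of 12 (adjusted p = 0.0028 to 0.0759). MLLT6 and MLLT10 guides differed in 0 members by edgeR and by DESeq2, with 10 at an unadjusted p under 0.05, where 0.766% of all genes were called.

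Genes that build or feed the chain were also examined in the DOT1L knockout, against the same 21.8% of all genes called. Of 42 assembly factors tested, 1 rose and 4 fell (median log2 change -0.21). Cox14, which assists mt-Co1 synthesis and complex IV assembly, fell by 0.76 ± 0.16 (SE, adjusted p = 0.000877, edgeR), Ndufaf3 by 0.80 (adjusted p = 0.002), Sdhaf3 by 0.73 (adjusted p = 0.034) and Ndufaf5 by 0.78 (adjusted p = 0.0455), while Surf1, another complex IV assembly factor, rose by 0.76 (adjusted p = 0.011). Of 18 biogenesis and mitochondrial transcription genes, Polrmt, the mitochondrial RNA polymerase, fell by 0.63 (adjusted p = 0.0091), Gabpb1, a subunit of the transcription factor NRF2/GABP, fell by 0.61 (adjusted p = 0.0465) and Polg, the mitochondrial DNA polymerase, rose by 0.88 (adjusted p = 0.0243). Of 24 genes of import, uncoupling and dynamics, the outer membrane fusion factor Mfn2 rose by 0.76 (adjusted p = 0.0026), and the ADP/ATP carrier Slc25a4 (-0.50, adjusted p = 0.0159) and the fission factor Dnm1l (-0.50, adjusted p = 0.0199) fell. Of 73 mitochondrial ribosomal proteins 1 fell, Mrps16 (-0.74, adjusted p = 0.0047; DESeq2 called 4). Of 12 coenzyme Q genes 1 fell, Coq9 (-0.56, adjusted p = 0.0278), and of 19 tricarboxylic acid cycle genes 1 fell, Pcx, pyruvate carboxylase (-1.20, adjusted p = 0.0499). Neither tool called any of 18 mitochondrial RNA handling genes (1 at an unadjusted p under 0.05) or of 2 cytochrome c genes (0 at an unadjusted p under 0.05). In the other knockouts the smallest adjusted p values were those of Cox14 (-0.41 ± 0.13, adjusted p = 0.111) and the mitochondrial topoisomerase Top1mt (0.75 ± 0.24, adjusted p = 0.114), both in the libraries labelled MLLT1 knockout.

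Promoters of nuclear members were read from RefSeq (GRCm38.p6, 250 bases before to 50 after the gene start) for 68 of the 85. Both strands were searched for GCNTGCG, the core of the NRF1 motif, CCGGAAG, a motif of the ETS family to which GABPA belongs, and AAGATGG, the core of a YY1 motif, factors known for control of respiratory chain genes. For members the window nearest the GENCODE start was read. For the wider sets it was the first listed window of each gene, expressed here or not, so the shares are not fully alike. The NRF1 letters occurred in 44.1% of member promoters and in 21% of 17491 promoters of protein-coding genes (16.5% of 27025 promoters of all genes). The ETS letters occurred in 22.1% and 11.9% (9.12% of all), and the YY1 letters in 14.7% and 6.37% (6.48% of all). Of the 5 nuclear members that fell in the DOT1L knockout 4 had a promoter in the table: Uqcrh held the ETS letters, Atp5s those of NRF1, and neither Cox7a1 nor Cox7a2l held any of them. The Cox7a2l window lies 2997 bases from the GENCODE start of that gene, so it may belong to another start site. In a longer form, with GC before and C after the core, the NRF1 letters occurred in 23.5% of member promoters and 6.6% of those of protein-coding genes, and in 0 of these 4, Atp5s included. The longer YY1 form, with CNGC after the core, occurred in 8.82% and 1.41%. The promoters of Cox7a1 (chr7:30183921-30184220, plus strand) and Uqcrh (chr4:116075021-116075320, minus strand), which fell, are printed beside those of Cox7a2 (chr9:79759804-79760103, minus strand) and Cox6a1 (chr5:115348909-115349208, minus strand), which were not called. Capitals mark matches to these letters on either strand, which in Cox6a1 overlap for NRF1; a match shows only that the letters are there.
Cox7a1: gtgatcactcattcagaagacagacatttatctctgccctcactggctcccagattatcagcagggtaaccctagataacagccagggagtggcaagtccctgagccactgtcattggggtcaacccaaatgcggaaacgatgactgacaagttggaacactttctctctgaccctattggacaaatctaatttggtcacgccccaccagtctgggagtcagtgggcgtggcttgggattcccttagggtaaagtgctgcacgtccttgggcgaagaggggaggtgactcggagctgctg
Cox7a2: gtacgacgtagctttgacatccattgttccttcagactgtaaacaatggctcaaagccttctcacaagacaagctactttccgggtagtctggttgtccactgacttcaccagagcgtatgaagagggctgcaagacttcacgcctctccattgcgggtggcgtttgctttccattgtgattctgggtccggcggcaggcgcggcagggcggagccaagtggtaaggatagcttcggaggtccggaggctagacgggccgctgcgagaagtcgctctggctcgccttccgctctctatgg
Uqcrh: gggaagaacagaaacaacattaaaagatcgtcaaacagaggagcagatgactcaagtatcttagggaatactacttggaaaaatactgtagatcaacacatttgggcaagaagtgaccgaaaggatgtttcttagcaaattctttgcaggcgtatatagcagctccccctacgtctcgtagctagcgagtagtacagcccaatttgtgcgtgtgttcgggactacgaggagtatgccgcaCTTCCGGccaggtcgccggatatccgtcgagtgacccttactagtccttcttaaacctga
Cox6a1: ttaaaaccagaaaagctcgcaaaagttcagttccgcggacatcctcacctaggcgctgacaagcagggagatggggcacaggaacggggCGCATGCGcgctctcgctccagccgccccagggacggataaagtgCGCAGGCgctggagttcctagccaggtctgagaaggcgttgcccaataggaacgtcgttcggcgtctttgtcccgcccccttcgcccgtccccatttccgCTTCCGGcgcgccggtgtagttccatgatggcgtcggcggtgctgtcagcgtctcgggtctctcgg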

How the data were processed

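RNA-seq of 24 samples (8 groups of 3) was analysed from 1 table of raw counts per Ensembl gene that the authors deposited. Per the submitters' processing notes the tools were bcl2fastq, HISAT2, HTSeq and DESeq2 and the genome build mm10; tool versions, strandedness and the gene annotation used for counting are not given in those sources. Some nuclear members overlap another annotated gene, in part by only a few bases. Without a known strand setting, reads from a stretch shared with a gene on the opposite strand, as for Cox6a2 and Itgad, cannot be assigned to 1 of them. For genes that overlap on the same strand, such as Cox4i1 and Gm20388, strand would not separate such reads.

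Gene names came from GENCODE M21 (42462 of 43629 identifiers matched; 1167 did not). The members, lists, tests and named genes were chosen with earlier results of these data known. Counts were fitted with edgeR 4.0.16 in R 4.3.3 (quasi-likelihood test, TMM scaling, filterByExpr by group, all 24 libraries, Benjamini-Hochberg over the 10578 genes that passed the filter), and a gene was called at an adjusted p under 0.05. MLLT10, MLLT1 and MLLT6 contrasts average both guides. DESeq2 1.42.0 was an alternative. Standard errors are the log2 change divided by the root of the F statistic; CPM are counts over TMM-scaled library size. Replicates of a group differed beyond counting noise (chi-square per gene 4.76 to 34.31).

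Named genes were all mitochondrial members, the called members of each control comparison (or the 3 with the smallest p), the highest and lowest member of each complex in control TPM, tissue-restricted isoforms, the 4 targets, and up to 4 genes per related list. Ndufa9, catalytic subunits and members named for their spread or between knockouts were chosen after their values were seen. The 3 list symbols without an identifier in the annotation (Coa1, Fastkd4 and Prorp) were left out. Values of 1 member are not reported here by name. Alternatives covered scaling, the count filter, the tool, the samples in the fit, a replicate block and left-out libraries.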

Additional observations from a re-analysis of the deposited data

Results flagged for a closer look

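In groups of 6 libraries (both guides of a target), 96 sets of values were examined by Dixon's test. It looks for a library far from the others at its 95% critical value, and 13 were found. The nominal rate by chance, about 1 in 20, holds for independent sets that were not chosen by their values. Members here were partly chosen by tests that used the same libraries, so the 13 cannot be set against that rate. Of the 13, 9 were MLLT6 guide 1 replicate 3, which had the highest value each time. There Atp5d stood at 947 CPM (next 506), Atp5j2 at 714 (next 496), Cox7a1 at 117 (next 64.1), Cox7a2l at 258 (next 163), Ndufb2 at 204 (next 137), Ndufs3 at 53.5 (next 33.6), Ndufs4 at 295 (next 222), Uqcrq at 2360 (next 1590) and mt-Nd2 at 1170 (next 706). The other 4 were spread over the targets. Uqcrh was lowest at 491 CPM in MLLT10 guide 2 replicate 2 (next 550), Ndufa7 highest at 206 in MLLT1 guide 1 replicate 2 (next 151), mt-Nd2 highest at 871 in MLLT1 guide 2 replicate 2 (next 642) and mt-Nd3 highest at 15.3 in MLLT6 guide 2 replicate 3 (next 3.53). Depth differed too, from 2403044 to 7415397 counts over all libraries. MLLT6 guide 1 replicate 3 held 6773032, and the MLLT10 and MLLT1 libraries flagged here held 6825126, 6879158 and 7415397 in the order given. MLLT6 guide 2 replicate 3 held 3193315, while MLLT10 guide 2 replicate 1, with 7078139, had no flagged value. Library depth and quality were not tested as sources of these values.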

How the results depend on the processing

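Of the named members' results, 740 kept direction and side of the threshold under the alternatives, 129 lost the call, 25 gained it and 5 changed sign: mt-Nd5 in the DOT1L knockout was 0.02 without control replicate 1 (range with single libraries left out -0.13 to 0.02) and 0.05 with no replicate 1 libraries, mt-Nd1 was -0.07 and -0.06 without control replicates 2 and 3 (range -0.07 to 0.58), and mt-Nd2 was -0.02 without control replicate 3 (range -0.02 to 0.44). DESeq2 size factors, and scaling without mitochondrial genes, S100a8 and S100a9, called the same genes. With no filter on low counts, calls against the control were 10 for DOT1L (5 higher), 2 for MLLT10, 2 for MLLT1 and 2 for MLLT6; by guide 2 and 1 for MLLT10, 3 and 2 for MLLT1 and 9 for MLLT6 guide 1; and 1, 3 and 2 for guide 2 against guide 1. Without that filter MLLT1 differed from DOT1L in 7 and from MLLT10 in 2, and MLLT6 from MLLT10 in 4 and from MLLT1 in 7. Fitting only the compared groups gave 10 for DOT1L, 14 for MLLT10 and 21 for MLLT6 against DOT1L, 0 for MLLT1 against MLLT10 and 1 for MLLT6 against MLLT1. MLLT6 against DOT1L gave 14 in the fit used throughout, 19 without the count filter, 21 with a replicate block and 18 with DESeq2. MLLT10 against DOT1L gave 9, 13, 13 and 12 in the same order. With no replicate 1 libraries these comparisons gave 18 for MLLT6 and 6 for MLLT10. DESeq2 gave 1 for MLLT1, 1 for MLLT1 guide 2, 2 for MLLT1 against MLLT10 and 5 for MLLT6 against MLLT1. Leaving out both MLLT6 guide 1 replicate 3 and MLLT1 guide 1 replicate 1, which lay far from their groups (chosen after seeing the data), there was 1 for MLLT1 (Cox7a2l), 1 for its guide 2, 6 for MLLT1 against DOT1L and 2 against MLLT10. With no replicate 1 libraries (also chosen after seeing the data) there were 11 for DOT1L, 3 for MLLT1, 1 for each MLLT1 guide, 5 for MLLT1 against DOT1L and 0 against MLLT10. The cause of these differences was not tested. The nuclear log2 ratio for DOT1L was -0.28 as a share of all counts and relative to all counts outside mitochondrial genes.

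With single libraries left out, calls ranged from 4 to 8 for DOT1L, 0 to 1 for MLLT1 and 0 to 0 for MLLT10, MLLT6 and each guide; 2 to 8, 2 to 5 and 7 to 15 for MLLT10, MLLT1 and MLLT6 against DOT1L; 0 to 2 for MLLT1 against MLLT10, 0 to 0 for MLLT6 against MLLT10 and 0 to 6 for MLLT6 against MLLT1. The mitochondrial log2 ratio ranged from 0.21 to 0.82 for DOT1L, -0.08 to 0.53 for MLLT10, -0.11 to 0.50 for MLLT1 and -0.20 to 0.41 for MLLT6, and the nuclear one from -0.09 to -0.01, 0.02 to 0.09, -0.04 to 0.03 and 0.06 to 0.14.

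The replicate numbers were checked for pairing. Deviations of same-numbered libraries correlated above 0.1 in all 3 pairs in 6 of 28 pairs of groups (control and DOT1L 0.24, 0.06 and 0.13). For replicate 1 every pair of groups was positive except MLLT1 guide 1 with MLLT6 guide 1 (-0.02). For replicate 3 only pairs with MLLT6 guide 1 were negative, and for replicate 2 values ran from -0.24 to 0.25. The check therefore does not decide whether the numbers pair the samples across groups. The mitochondrial genes and Sdhd described above did follow the number. With a replicate block, DOT1L calls were 9 (3 higher, mt-Nd4, mt-Cytb and mt-Atp6), and MLLT1 differed from DOT1L in 5, MLLT1 from MLLT10 in 3 and MLLT6 from MLLT1 in 5. Low counts limit mt-Nd3, Cox6a2 and the untested isoforms.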
